A study of Homo sapiens with 8 samples.

Results

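Fibronectin, periostin and 8 further proteins of the loose, signalling part of the extracellular matrix were followed as a set of 10 genes: FN1, POSTN, TNC, THBS1, THBS2, SPARC, SPARCL1, TGFBI, MGP and LUM. The genes were taken by symbol from a table of 30386 genes, and all 10 were found in it. Messenger RNA had been sequenced from endothelial cells made from WTC-TJP1, an established line of human induced pluripotent stem cells. One group of 4 samples, iEC, holds endothelial cells of no stated tissue, and the other group of 4, iREC, holds cells that the study title calls retinal endothelial cells. Both groups come from that 1 line, were taken at passage 1, and have replicates lettered C to F; sample values are listed in the order C, D, E, F throughout. No treatment is given for either group, and nothing states that the samples of a group came from separate cultures, so a p-value here measures the spread between these samples, which may be technical. With a single line, a difference between groups cannot be extended to other lines.

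Fibronectin is a large adhesive glycoprotein that cells assemble into fibrils through integrins, and its fibrils serve as a scaffold for later matrix. Matricellular proteins, among them the thrombospondins, tenascins, SPARC and periostin, are secreted into the matrix but act mainly as modulators of adhesion, growth factor signalling and matrix assembly rather than as structural fibres. In vessels, fibronectin supports the sprouting and stability of the endothelium, while thrombospondins 1 and 2 are known as inhibitors of angiogenesis.

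Library totals lay between 14877502 and 16971865 counts for iEC and between 13739364 and 15987839 for iREC. Levels are given as CPM, counts scaled to a common library size after TMM, a normalization that balances the libraries over most genes. Detection was set at a floor of 3 counts, or 0.177 to 0.214 CPM depending on the library, and floors and intervals cover counting error only. Of all genes, 15330 had enough counts for the test, and 3829 of them (25.0%) passed edgeR's quasi-likelihood test at a Benjamini-Hochberg adjusted p under 0.05 (a gene that passed is here "called"): 2031 (13.2%) higher and 1798 (11.7%) lower in iREC. The median log2 fold change of all tested genes was 0.020.

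The 10 genes were selected on their measured counts in iREC and iEC, the same contrast, so their differences are described here and carry no test of their own. Of the 10, 9 had enough counts and MGP did not. Of the 9, 7 were called, all higher in iREC, against 13.2% of all tested genes called higher. The exceptions were THBS2 and TGFBI. Without iREC F 5 were called (FN1, POSTN, THBS1, SPARC and SPARCL1), among 4214 genes called in all. The same 5 were called without iREC D (2660 genes in all), without iEC E (2893) and with limma-voom (3773). In 6 of the 10 genes (FN1, POSTN, THBS1, SPARC, SPARCL1 and MGP) every iREC sample lay above every iEC sample, against 14.5% of all tested genes (14.6% had every iREC sample below). In the other 4 (TNC, THBS2, TGFBI and LUM) the groups overlapped. Nothing is read from these shares, since the choice of genes fixed them in part. In bulk samples, fewer cells of a type and less RNA per cell cannot be told apart.

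The sequences just upstream of the transcription start are shown for 6 genes because 4 of them hold a TATA-type motif close to the start. RefSeq promoter sequences of GRCh38.p14 were matched for 8 of the 10 genes, all except MGP and LUM. Each line gives the last bases before the RefSeq start, 5′ to 3′ on the strand of the gene. For FN1, POSTN, TNC, THBS2 and TGFBI, the gene spans given below begin upstream of that start. Their stretches therefore lie partly or wholly within those spans. Capitals mark TATAA on the gene strand within 50 bases of the start, and GGAATG or its reverse complement CATTCC anywhere in the stretch, the letters bound by the TEAD factors that act with YAP.
FN1: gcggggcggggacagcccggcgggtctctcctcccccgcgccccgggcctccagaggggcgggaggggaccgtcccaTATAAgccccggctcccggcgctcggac
POSTN: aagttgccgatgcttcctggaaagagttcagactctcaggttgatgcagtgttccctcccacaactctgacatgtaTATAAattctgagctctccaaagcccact
TNC: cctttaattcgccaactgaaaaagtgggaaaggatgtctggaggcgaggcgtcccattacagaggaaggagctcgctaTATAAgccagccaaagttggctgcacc
THBS2: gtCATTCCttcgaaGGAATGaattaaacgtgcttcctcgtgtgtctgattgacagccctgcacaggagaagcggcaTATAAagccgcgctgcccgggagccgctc
THBS1: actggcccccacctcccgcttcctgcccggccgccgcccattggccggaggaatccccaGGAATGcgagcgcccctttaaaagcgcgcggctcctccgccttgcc
TGFBI: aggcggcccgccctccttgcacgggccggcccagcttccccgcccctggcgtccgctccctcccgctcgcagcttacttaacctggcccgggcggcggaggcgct
These stretches lie at chr2:215436069-215436173, chr13:37598769-37598873, chr9:115118158-115118262 and chr6:169253847-169253951 on the minus strand, and at chr15:39580974-39581078 and chr5:136028883-136028987 on the plus strand.

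TATAA began 28 bases before the start in FN1, 29 in POSTN, 27 in TNC and 29 in THBS2. It was present in 4 of the 8 promoters matched and in 6.08% of the 15843 protein-coding promoters searched over the same 50 bases. THBS1 and TGFBI do not hold these letters in that window. GGAATG, searched on both strands over 250 bases, was found in 3 of the 8 (THBS1, THBS2 and SPARC) and in 10.1% of all promoters. THBS2 holds it once on each strand, with first bases 103 and 91 before the start. Searched in the same way, TGACGTCA, the full cyclic AMP response element, was found in FN1 and in 2.32% of all promoters, and TGANTCA, the AP-1 motif, in POSTN and in 5.04%. CCAAT was found in FN1, THBS1 and SPARCL1 and in 34.5% of all promoters. GGGCGG, the GC box, was found in FN1, TNC, THBS1 and TGFBI and in 56.0% of all promoters. In these promoters no match of one motif overlapped a match of another. The 6 motifs were chosen after the values and sequences were seen, and a match is a description of letters, not a measured binding site. Base composition over 250 bases ran from 36.4% G and C in POSTN and 38.8% in SPARCL1 to 72.8% in TGFBI and 76.4% in FN1, around a median of 62.4% for all promoters.

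FN1 encodes fibronectin and lies on the minus strand at chr2:215360440-215436172 (GRCh38). Its level was 235, 527, 149 and 426 CPM in iEC, and 13357, 11714, 17608 and 10706 CPM in iREC. All 4 iREC samples stood far above all 4 iEC samples, and no single sample set the difference. Group means were 334 ± 173 and 13346 ± 3044 CPM (SD, n = 4 each), a 39.9-fold ratio of means, and the fitted log2 fold change was 5.32 ± 0.44 (SE). FN1 alone held 1.04% of all counts in iREC F (95% Wilson interval 1.04% to 1.05%) and 1.81% in iREC E (1.80% to 1.81%). In iEC its share ran from 0.0149% in E (0.0143% to 0.0155%) to 0.0540% in D (0.0529% to 0.0552%). Ranked by FPKM, the deposited level per length of gene, FN1 stood at places 1330 to 4675 among protein-coding genes in iEC and at places 18 to 28 in iREC. That length is a single deposited value per gene, 17315 bases for FN1. All places and ratios between genes by FPKM depend on it.

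POSTN encodes periostin, a fasciclin-domain protein that binds integrins and promotes collagen crosslinking, and lies at chr13:37562583-37598844 on the minus strand. It measured 2.40, 2.40, 19.2 and 29.4 CPM in iEC and 530, 849, 710 and 1312 CPM in iREC. The groups were far apart, although the iEC samples themselves split into a low pair, C and D, and a higher pair, E and F. Means were 13.4 ± 13.3 and 850 ± 334 CPM (SD, n = 4 each), a 63.7-fold ratio, and the fitted log2 fold change was 5.99 ± 0.89 (SE), or 6.72 without iEC F. By FPKM, POSTN stood at places 6210 to 11436 among protein-coding genes in iEC and at places 92 to 335 in iREC.

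TGFBI encodes the transforming growth factor beta-induced protein, the other fasciclin-domain protein of the set, at chr5:136028895-136063818 on the plus strand. It measured 10.5, 19.0, 27.8 and 61.8 CPM in iEC and 1.37, 30.3, 5.60 and 212 CPM in iREC. The groups overlapped: iREC C and E lay below all 4 iEC samples, and iREC F above them. The ratio of means was 2.09 (29.8 ± 22.5 against 62.4 ± 101 CPM, SD), while the ratio of medians was 0.768. The fitted log2 fold change was 1.07 ± 1.20 (SE) with all samples and -1.27 without iREC F, so 1 sample decided its sign. It was 1.70 without iEC F, -0.70 with limma-voom and -0.54 with the replicate letter as a block. Without that sample the iREC mean was 12.4 ± 15.6 CPM. The FPKM ratio of POSTN to TGFBI ran from 0.180 to 0.986 in iEC and from 8.84 in iREC F to 553 in iREC C.

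**Figure D1:**
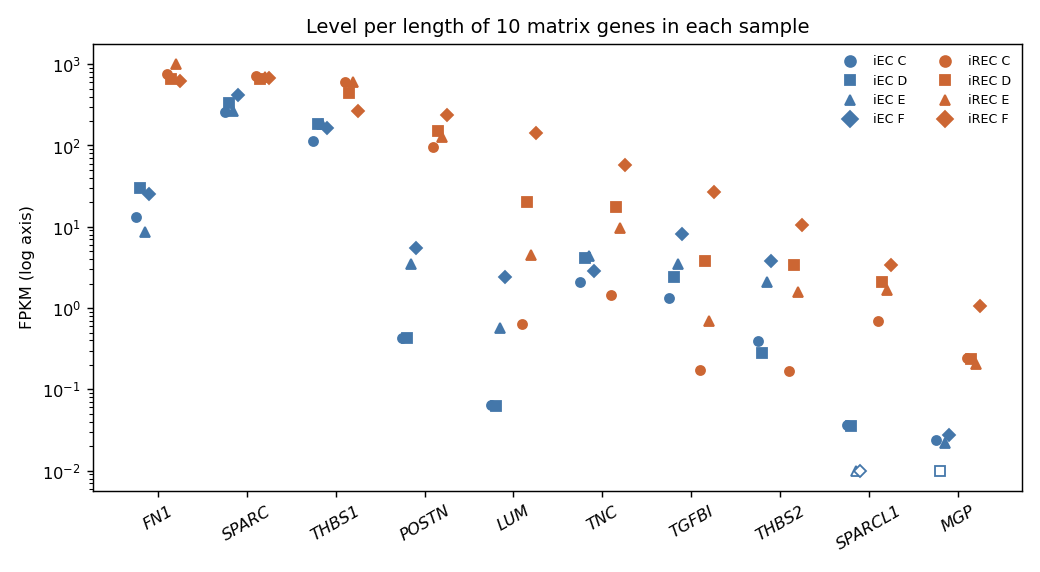
Level per length of the 10 genes in each sample, as deposited FPKM on a log axis, with iEC in blue, iREC in orange and 1 marker shape per replicate letter. Open markers stand for samples listed at 0 and are drawn at 0.01. The groups of FN1, SPARC, THBS1 and POSTN are separate, with iEC split for POSTN, whereas LUM, TNC, TGFBI and THBS2 spread widely within iREC, from C at the bottom to F at the top.

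THBS1 encodes thrombospondin 1, a trimeric glycoprotein that can activate latent TGF-beta and binds CD36 and CD47, at chr15:39581079-39599466 on the plus strand. It measured 1064, 1706, 1696 and 1441 CPM in iEC and 5560, 4096, 5719 and 2423 CPM in iREC. Every iREC sample was above every iEC sample, with iREC F nearest to them. Means were 1476 ± 301 and 4449 ± 1536 CPM (SD, n = 4 each), a 3.01-fold ratio, and the fitted log2 fold change was 1.59 ± 0.28 (SE) and 1.79 without iREC F. By FPKM it ranked 128 to 260 among protein-coding genes in iEC and 24 to 72 in iREC.

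THBS2, for the closely related thrombospondin 2 at chr6:169215780-169254044 on the minus strand, was far lower. It measured 2.59, 1.83, 13.4 and 23.6 CPM in iEC and 1.11, 21.9, 10.4 and 68.7 CPM in iREC. The groups overlapped: iREC C was below every iEC sample, and only iREC F stood above all of them. The fitted log2 fold change was 1.30 ± 1.08 (SE) with all samples, 2.09 without iEC F and 0.10 without iREC F. The iREC mean was 25.5 ± 30.01 CPM with it and 11.1 ± 10.4 CPM without it, against 10.3 ± 10.3 CPM in iEC (SD). By FPKM, THBS1 exceeded THBS2 42.8 to 653 times in iEC, 24.7 times in iREC F and 3509 times in iREC C.

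TNC encodes tenascin C, a hexameric glycoprotein best known from wound healing and embryonic mesenchyme, at chr9:115019578-115118257 on the minus strand. It measured 20.3, 40.6, 42.9 and 26.8 CPM in iEC and 14.4, 174, 93.8 and 561 CPM in iREC. In 3 of the 4 iREC samples the level was above all of iEC, while iREC C was below all of iEC. Means were 32.7 ± 10.9 and 211 ± 242 CPM (SD, n = 4 each), and iREC F held 66.5% of the iREC sum. The fitted log2 fold change was 2.69 ± 0.86 (SE) with all samples, 1.77 with limma-voom, 1.75 with the replicate letter as a block and 1.52 without iREC F. TNC was no longer called when any 1 sample other than iREC C was left out.

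SPARC encodes osteonectin, a collagen-binding glycoprotein abundant in cultured endothelial cells, at chr5:151661096-151687165 on the minus strand. It measured 1258, 1618, 1306 and 1941 CPM in iEC and 3484, 3212, 3404 and 3242 CPM in iREC. The 4 iREC samples were almost level, with a highest-to-lowest ratio of 1.08, and all lay above iEC. Means were 1531 ± 317 and 3335 ± 130 CPM (SD, n = 4 each), a 2.18-fold ratio, and the fitted log2 fold change was 1.12 ± 0.17 (SE). SPARC was already among the most abundant transcripts of iEC, at places 52 to 78 of the protein-coding genes by FPKM, and stood at places 22 to 24 in iREC.

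SPARCL1, for the SPARC-like protein hevin at chr4:87473335-87531061 on the minus strand, had 2, 2, 0 and 0 counts in iEC and 38, 103, 98 and 181 counts in iREC. All iEC samples were at or under the floor of detection and all iREC samples above it. The iREC mean was 6.90 ± 3.87 CPM (SD, n = 4), at least 35.6-fold higher than the floor per library, and at least 27.2-fold without iREC F. SPARCL1 was a minor transcript beside its relative: in iREC the FPKM of SPARC exceeded that of SPARCL1 by 197 to 1011 times.

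MGP and LUM have no shared structure, but both proteins are typical of mesenchymal matrix. MGP encodes matrix Gla protein, a vitamin K-dependent inhibitor of calcification that binds bone morphogenetic proteins, at chr12:14881181-14885926 on the minus strand. It had 1, 0, 1 and 1 counts in iEC and 10, 9, 9 and 43 counts in iREC. The iREC samples were above the floor and did not overlap iEC, but iREC F held 60.4% of their sum. The iREC mean was at least 6.0-fold higher than the floor per library, and at least 3.17-fold without iREC F. These few counts are uncertain, because C12orf60 overlaps MGP on the opposite strand with 23 to 28 counts in iEC and 62 to 128 in iREC, and nothing used here states whether counting used the strand.

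LUM encodes lumican, a small leucine-rich proteoglycan that spaces collagen fibrils, at chr12:91102629-91111831 on the minus strand. It had 3, 3, 29 and 100 counts in iEC and 30, 867, 227 and 6544 counts in iREC. The groups overlapped, since iREC C lay below iEC F, and iREC F stood far above everything else with 84.7% of the iREC sum. Means were 2.31 ± 3.30 and 126 ± 203 CPM (SD, n = 4 each). The fitted log2 fold change was 5.80 ± 1.69 (SE) with all samples and 3.50 without iREC F, and 7.44 without iEC F, the highest iEC sample. LUM was no longer called without iREC F, iREC D, iEC C, iEC D or iEC E. By FPKM, LUM ranked 207 among protein-coding genes in iREC F and 11123 in iREC C.

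**Figure D2:**
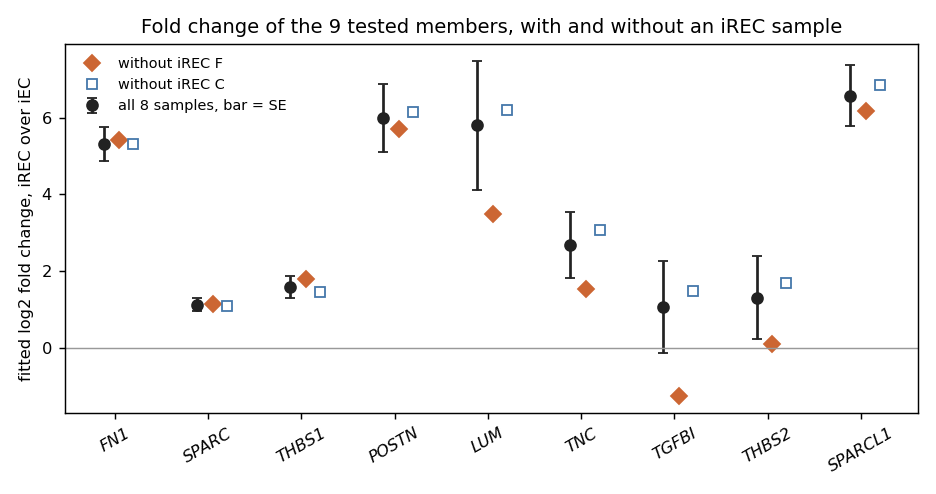
Fitted log2 fold change, iREC over iEC, of the 9 tested genes: black points with bars of 1 SE for all 8 samples, orange diamonds without iREC F and open squares without iREC C. Leaving out iREC F moves TGFBI from 1.07 to -1.27, LUM from 5.80 to 3.50 and THBS2 from 1.30 to 0.10, while FN1 and SPARC hardly move; the fitted value of SPARCL1 depends on the prior count, since iEC is at the floor.

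A gene was said to rest on a single replicate where its highest iREC sample held over 50% of the summed iREC CPM. This held for 5 of the 10 genes, in each case with F as that sample: TGFBI (85.0%), LUM (84.7%), THBS2 (67.3%), TNC (66.5%) and MGP (60.4%). Of all tested genes, 5.34% had such a sample, but MGP was not among the genes tested. The share of the highest sample was 42.8% for SPARCL1 and 38.6% for POSTN, both with F, 33.0% for FN1 and 32.1% for THBS1, both with E, and 26.1% for SPARC with C.

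The iREC samples ranked in the same order, C, E, D and F from low to high, in 6 of the 10 genes: POSTN, TNC, THBS2, SPARCL1, TGFBI and LUM. That order was found in 7.89% of all tested genes (1210). F exceeded C 218 times for LUM, 155 times for TGFBI, 61.9 times for THBS2, 39.1 times for TNC, 4.77 times for SPARCL1 and 2.47 times for POSTN. An F at least 10 times C, with C lowest and F highest, was seen in 4 of the genes and in 1.75% of all tested genes. FN1 and THBS1 shared the reverse end of the range, F, D, C and E from low to high, with E above F 1.64 times for FN1 and 2.36 times for THBS1. POSTN, THBS2, TGFBI and LUM were highest in replicate F in both groups, as were 13.3% of all tested genes. The FPKM ratio of FN1 to TNC ran from 10.6 in iREC F to 518 in iREC C, and from 1.94 to 8.83 in iEC.

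**Figure D3:**
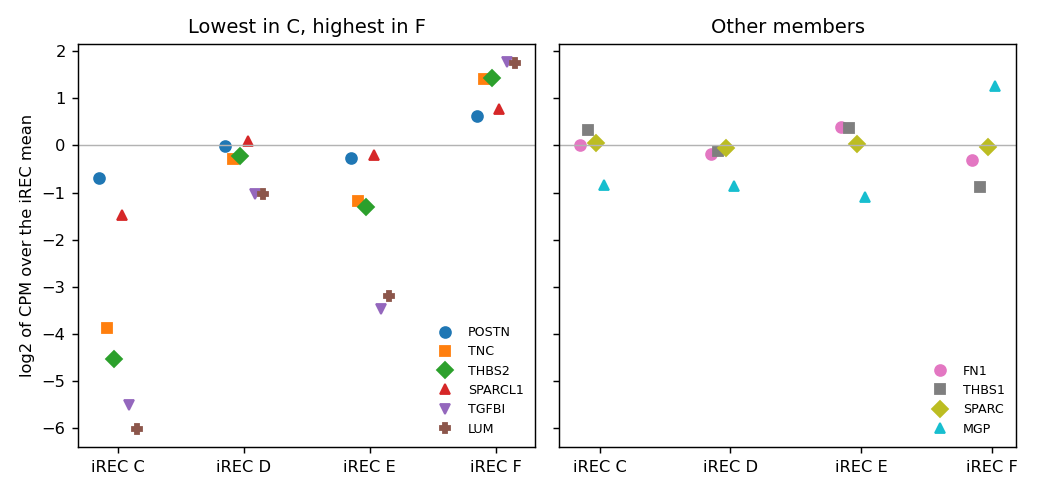
Log2 of the CPM of each iREC sample over the mean of the 4 iREC samples, for the 6 genes lowest in C and highest in F (left) and the other 4 (right), each gene with its own marker. LUM and TGFBI span the widest range, while FN1 and SPARC stay near the mean. THBS1 is lowest in F, at 2423 CPM against an iREC mean of 4449 CPM, and MGP is highest in F.

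The sums of mural and fibroblast, epithelial and pluripotency markers were highest in replicate F of iREC. The summed level of 16 mural and fibroblast markers was 287, 272, 246 and 500 CPM in iEC and 1091, 1289, 699 and 4313 CPM in iREC. All 11 of its tested genes were highest in F among the iREC samples; 4 rose and 1, RGS5, fell in iREC by edgeR's quasi-likelihood test. RGS5 was not called without iEC C, iREC D or iREC E, nor with the replicate letter as a block. The sum of 7 epithelial markers was 446, 390, 672 and 1171 CPM in iEC and 301, 1115, 421 and 4912 CPM in iREC, in the order C, E, D and F within iREC. All 5 tested epithelial genes were highest in F, and 1 of them, KRT7, rose; ESRP1 was at 0 counts in all of iEC. The groups overlapped for KRT7, and it was not called with limma-voom or without iEC C, iEC D, iEC E or iREC D. The most abundant, KRT8, measured 98.4, 600, 195 and 3017 CPM in iREC. The 5 pluripotency markers summed to 12.9 to 52.7 CPM in iEC and to 58.0, 184, 90.5 and 517 CPM in iREC. LIN28A led them and rose, and made up most of the sum in iREC F, at 480 CPM. DNMT3B, the other tested gene, was level across iREC, from 37.3 CPM in C to 35.4 CPM in F. NANOG was at 0 counts in all of iEC. LIN28A was not called with limma-voom, with the block or without iEC D, iEC E or iEC F.

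The 12 endothelial markers were all tested and none was at 0, with PECAM1 highest in iEC and KDR highest in iREC. They summed to 7685 to 9811 CPM in iEC and to 7759, 8205, 10059 and 4576 CPM in iREC, the lowest value being F, and 3 rose and 5 fell. TEK, which rose, and PECAM1, EGFL7 and ROBO4, which fell, were called under every alternative run, and the other 4 were not. The 6 blood markers found summed to at most 1.48 CPM in iEC and 3.79 CPM in iREC; PTPRC and CD68 were at 0 counts in iEC and SPI1 and GATA1 in iREC. PTPRC, the pan-leukocyte marker, rose to 42, 17, 13 and 27 counts in iREC, a mean at least 8.40-fold higher than the floor per library (edgeR adjusted p = 0.00243), and was called in the 14 alternatives that tested it. The 5 retinal neuron and pigment epithelium markers found summed to 4.15 to 5.61 CPM in iEC and 2.87 to 9.80 CPM in iREC, with MITF highest and RPE65 at 0 counts in iEC. BEST1 rose from 0.597 ± 0.101 to 2.21 ± 1.35 CPM (edgeR adjusted p = 0.0222), but was not called with limma-voom, with the block or without iEC E, iEC F, iREC D or iREC E. Lumican, periostin, tenascin C and thrombospondin 2 are also made by fibroblasts and mural cells. The part of these cell types in the levels of the 10 genes was not tested. The mural and fibroblast sum was above every iEC sample in iREC C, D and E as well as in F. Its highest gene by mean in iREC was TAGLN, at 731, 555, 317 and 868 CPM. In iREC C and E the sum was above that of iEC F only with TAGLN included. Of its tested genes, TAGLN, CNN1, NOTCH3 and TBX18 were higher in every iREC sample than in any iEC sample. PDGFRB, CSPG4, RGS5, ACTA2, COL1A1, COL1A2 and COL3A1 overlapped between the groups, so the sum does not speak for each marker.

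**Figure D4:**
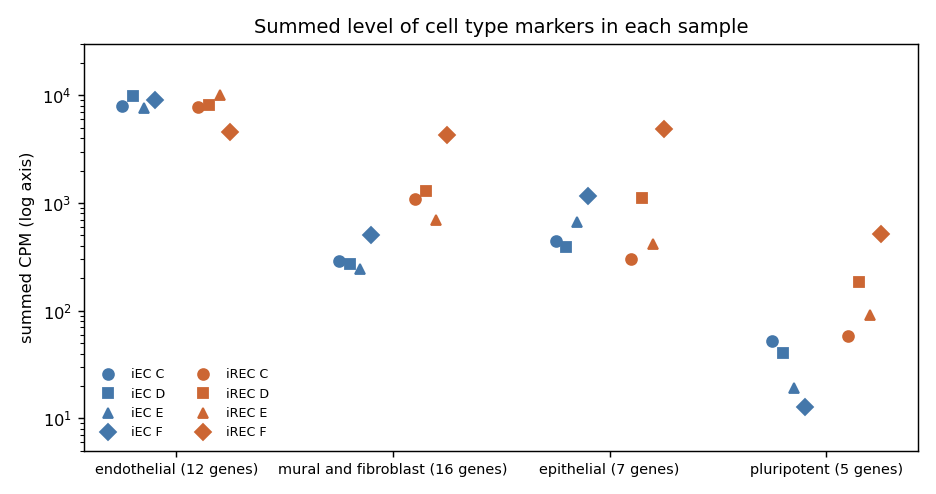
Summed CPM, on a log axis, of 4 lists of cell type markers in each sample, with iEC in blue, iREC in orange and 1 marker shape per replicate letter. iREC F is the highest sample for the mural and fibroblast, epithelial and pluripotent lists and the lowest for the endothelial list. The pluripotent sum of iREC F is mostly LIN28A, at 480 CPM.

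Compared per length by FPKM, SPARC led the set in iEC (316 ± 72.3), followed by THBS1 (160 ± 32.7) and FN1 (19.3 ± 10.01, SD, n = 4 each). The remaining genes stood below 4 FPKM on average. Their neighbours TGFBI (3.84 ± 3.004), TNC (3.37 ± 1.10), POSTN (2.47 ± 2.498), THBS2 (1.63 ± 1.65) and LUM (0.782 ± 1.13) overlapped each other in turn. In iREC, FN1 (759 ± 169) and SPARC (680 ± 25.5) overlapped at the top, THBS1 (478 ± 163) followed without overlap on either side, and from POSTN (154 ± 61.5) on each gene overlapped the next: LUM (41.7 ± 67.1), TNC (21.7 ± 25.1), TGFBI (7.93 ± 12.8), THBS2 (3.94 ± 4.67), SPARCL1 (1.96 ± 1.11) and MGP (0.436 ± 0.416). Of the 9 neighbouring pairs, 4 did not overlap in iEC and 2 in iREC. The order between genes depends on the deposited gene lengths, such as 17315 bases for FN1 and 4831 for SPARC. No other lengths were tried. Together the 10 genes made up 0.268% to 0.401% of all counts in iEC and 1.84% to 2.83% in iREC. FN1, THBS1 and SPARC supplied 96.2% to 98.6% of these in iEC and 94.3% to 97.6% in iREC C, D and E, against 86.3% in iREC F.

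For each of the 10, the 3 protein-coding genes with the most similar profile over the 8 samples were found by the root mean square difference of mean-centred log2 CPM among 9953 genes. A smaller value means a closer profile, and it is read against the spread of the gene itself. The closest to FN1 (spread 2.78) were MASP1 (0.361), CYP26B1 (0.383) and PALMD (0.414). POSTN (3.56) was closest to SULF1 (0.386), COL8A1 (0.435) and NTN4 (0.591), and THBS1 (0.868) to ASH2L (0.221), TNIK (0.240) and ENTPD1 (0.266). SPARC (0.601) was closest to TCF7L2 (0.108), GEMIN8 (0.122) and FGD1 (0.123), and SPARCL1 (2.62) to IGSF10 (0.476), PDZRN3 (0.484) and PCDH18 (0.577). The replicate-dependent genes had other neighbours: TNC (1.64) had FMN2 (0.450), ASPHD1 (0.601) and CELSR1 (0.635), and THBS2 (1.89) had GPRC5A (0.438), LGALS3BP (0.559) and KRT19 (0.616), the last being one of the epithelial markers above. TGFBI (2.03) had LAYN (0.705), EPHB2 (0.807) and FLNC (0.841), and LUM (3.38) had OLR1 (0.752), TENM2 (0.862) and KRT7 (0.873). MGP (1.44) had JPH2 (0.304), GPRC5C (0.306) and TUB (0.377). The profiles and spreads of MGP and SPARCL1 depend on the prior count, since both were at the floor in iEC.

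Genes of the surrounding pathways were taken from 8 lists with 89 genes in all, none of them one of the 10. Adjusted p-values below are Benjamini-Hochberg values over all 15330 tested genes from edgeR's quasi-likelihood test, with 4 samples a group, and the means in CPM carry their SD. Among 13 tested receptors of fibronectin and matricellular proteins, 3 rose and none fell (23.1% called, against 25.0% of all tested genes), and the median log2 fold change was 0.37 against 0.020 for all tested genes. ITGAV, the integrin alpha chain that pairs with several beta chains to bind fibronectin, periostin and vitronectin, rose from 117 ± 14.5 to 399 ± 27.7 CPM (adjusted p = 3.78e-05). ITGA9, the alpha chain of a tenascin C receptor, rose from 71.0 ± 46.0 to 326 ± 101 CPM (adjusted p = 0.0104). CD36, the thrombospondin receptor of microvascular endothelium, rose from 0.985 ± 0.634 to 143 ± 91.5 CPM (adjusted p = 0.000158). The main fibronectin receptor chains were not called: ITGA5 stood at 666 ± 184 and 576 ± 88.2 CPM in iEC and iREC (adjusted p = 0.507), and ITGB1 at 2436 ± 240 and 1841 ± 135 CPM (adjusted p = 0.0505). ITGB1 was called, as lower, by DESeq2, limma-voom and with library size as the only scaling. The count of receptors called reached 5 without iREC C.

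Of 12 other matricellular genes tested, out of 20 listed, 5 rose and 1 fell (50% called, against 25.0%), with a median log2 fold change of 0.94. Of those that rose, SPP1 and CCN2, listed as CTGF, overlapped between the groups. Each was called in 8 of 15 alternative runs, whereas FSTL1, CCN4 and VTN were called in all 15. SPP1 measured 16.6, 252, 115 and 1214 CPM in iREC. CCN4, listed as WISP1, rose from 0.381 ± 0.518 to 108 ± 27.5 CPM (edgeR adjusted p = 6.43e-05), with a log2 fold change of 8.19, and 9.66 without iEC F. FSTL1, a secreted SPARC-family protein, rose from 210 ± 46.3 to 1097 ± 720 CPM (edgeR adjusted p = 0.00306). It measured 529, 1035, 695 and 2129 CPM in iREC, and its log2 fold change of 2.39 was 1.84 without iREC F. VTN, for vitronectin, rose from 0.348 ± 0.271 to 18.6 ± 5.49 CPM (edgeR adjusted p = 0.000238), but its value is uncertain because SARM1 overlaps it on the opposite strand with more counts. The list had 3 called genes without iEC E and without iREC D. Both small leucine-rich proteoglycans tested, of 11 listed, rose, too few for a share to be read against 25.0%: BGN, for biglycan, went from 25.6 ± 21.9 to 488 ± 36.8 CPM (edgeR adjusted p = 0.00173) and was level across iREC, from 434 to 513 CPM, unlike LUM. DCN, for decorin, was not tested in the main run, and was called in 6 of the 7 alternatives that tested it. It had 0, 0, 0 and 1 counts in iEC, and every iREC sample lay above every iEC sample. It measured 0.587, 17.7, 4.20 and 133 CPM in iREC, the order of LUM.

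Of 12 tested genes of elastic fibres and microfibrils, 6 rose and 2 fell (66.7% called, against 25.0%), with a median log2 fold change of 0.71. EFEMP1, for fibulin 3, rose from 139 ± 49.3 to 2107 ± 573 CPM (edgeR adjusted p = 8.87e-05), FBN1, the main microfibril protein, from 73.8 ± 27.7 to 355 ± 76.4 CPM (edgeR adjusted p = 0.000416), and LTBP4 from 2.99 ± 1.64 to 10.8 ± 3.46 CPM (edgeR adjusted p = 0.0166). LTBP2 fell from 611 ± 218 to 42.2 ± 10.1 CPM (edgeR adjusted p = 5.09e-05), and MFAP2, a microfibril-associated glycoprotein, from 30.5 ± 9.34 to 1.94 ± 0.636 CPM (edgeR adjusted p = 5.76e-05). Among 6 crosslinking enzymes, 2 rose and 1 fell (50% called), with a median of 1.21. LOXL1, a lysyl oxidase of elastic fibres, rose from 8.30 ± 3.39 to 38.4 ± 12.5 CPM (edgeR adjusted p = 0.0012), with LOXL1-AS1 overlapping it on the other strand at up to 32.2% of its counts. LOX itself, which periostin helps to activate, was not called at 19.4 ± 13.7 and 71.2 ± 67.7 CPM (edgeR adjusted p = 0.0815); it was called with the replicate letter as a block, and its log2 fold change was 1.88 with all samples and 0.97 without iREC F.

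TGF-beta induces several of the 10 genes in many cell types. Of its 8 ligand and receptor genes, 3 rose and 1 fell (50% called, against 25.0%), with a median log2 fold change of 0.62. TGFB2 rose from 6.30 ± 6.34 to 98.9 ± 85.8 CPM (edgeR adjusted p = 0.00813), the co-receptor TGFBR3 from 62.9 ± 53.6 to 491 ± 176 CPM (edgeR adjusted p = 0.00564) and TGFBR1 from 22.2 ± 3.57 to 123 ± 115 CPM (edgeR adjusted p = 0.0108). TGFB2 and TGFBR1 were highest in iREC F, at 223 and 293 CPM. Their log2 fold changes of 3.98 and 2.47 were 3.19 and 1.57 without it, that of TGFB2 was 4.89 without iEC F, and that of TGFBR3, 2.97, was 3.72 without iEC D. TGFB1 fell from 150 ± 30.4 to 87.1 ± 6.66 CPM (edgeR adjusted p = 0.00605), a value made uncertain by HNRNPUL1 on the opposite strand. Of 8 target genes, 3 rose and 1 fell (50% called), with a median of 0.78. TAGLN rose from 34.6 ± 15.7 to 618 ± 238 CPM (edgeR adjusted p = 0.000147). CNN1 rose from 1.72 ± 1.01 to 48.5 ± 44.7 CPM (edgeR adjusted p = 0.00112). The log2 fold change of CNN1, 4.83, was 3.95 without iREC F. Both encode smooth muscle proteins and are also in the mural marker list, whose part was not tested. The target that fell was LTBP2.

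Of the 7 genes for vitamin K-dependent carboxylation and for partners of matrix Gla protein, 3 rose and 2 fell (71.4% called, against 25.0%), with a median log2 fold change of 0.97. In iREC BMP4 rose from 3.04 ± 1.39 to 134 ± 49.2 CPM (edgeR adjusted p = 4.7e-05). BMP2 rose from 20.4 ± 14.3 to 78.7 ± 27.0 CPM (edgeR adjusted p = 0.0173). Both ligands are bound by matrix Gla protein. GGCX, the carboxylase itself, rose from 58.8 ± 5.49 to 118 ± 31.6 CPM (edgeR adjusted p = 0.00421), with MAT2A overlapping it on the opposite strand at more counts, so its value is uncertain. VKORC1L1, a vitamin K reductase, fell from 98.7 ± 7.17 to 72.1 ± 9.34 CPM (edgeR adjusted p = 0.0253). BMP2 was not called without iEC C, and VKORC1L1 was not called with no filter on low counts or without iEC C, iEC E, iREC D or iREC E. The list had 2 called genes without iEC C and 3 without iREC D.

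**Figure D5:**
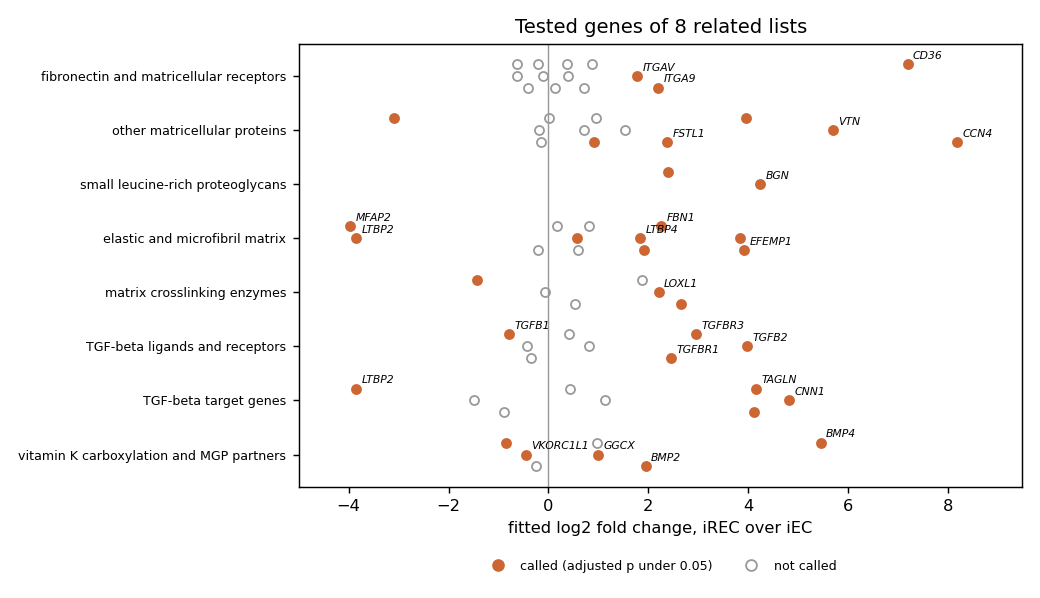
Fitted log2 fold change, iREC over iEC, of every tested gene of the 8 lists, 1 row per list with small vertical offsets for legibility. Filled points passed edgeR's quasi-likelihood test and open points did not; named genes range from MFAP2 at -3.97 to CCN4 at 8.19, and LTBP2 stands in 2 lists.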

How the data were processed

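Poly-A RNA of 4 iEC and 4 iREC samples was sequenced, per the labels' protocols, with dUTP in the second strand. The submitters' processing notes name fastp, HISAT2 2.0.5 and build hg38; the counting program and its use of strand are not given in the sources used here. The authors deposited 1 table of raw read counts per gene, normalized signal (the count divided by 1 factor per sample), FPKM, a log2 fold change and p-values for iREC against iEC, per the file headers. The deposited log2 values were within 3.14e-05 of DESeq2 1.42.0 run here. Gene starts and ends of 30378 rows, the 10 genes included, equal GENCODE 29 (GRCh38).

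From the counts, genes were kept by filterByExpr and tested with edgeR 4.0.16 (TMM, glmQLFit, glmQLFTest, group as the only term, R 4.3.3) with Benjamini-Hochberg adjustment. The SE is the absolute log2 fold change over the root of F. Log2 CPM used a prior count of 2, and levels between genes used the deposited FPKM. The script was also run on simulated counts, drawn independently for each gene and sample. Those counts held no order of replicates shared between genes, so the run does not speak for calls that rest on iREC F. From each list, up to 3 called genes per direction with a group mean of at least 10 CPM and no overlap between groups were named, largest fold first. ITGA5, ITGB1, SPP1, CCN2, DCN, LOX, KRT7, RGS5, TEK, EGFL7, ROBO4, BEST1 and the levels of PTPRC were picked with their values known. Other settings tried were a stricter or no filter, DESeq2, its size factors, no scaling beyond library size, limma-voom (limma 3.58.1), the replicate letter as a block and each sample left out. The 10 genes and the lists were chosen with earlier results of these data known. One gene of the TGF-beta target list is counted but not reported here.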

Additional observations from a re-analysis of the deposited data

Results flagged for a closer look

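Sets of 4 samples were examined on log2 CPM for a sample whose gap to its nearest neighbour was too large a share of the range (Dixon's 95% critical value). Of 66 sets (33 named genes in each group), 5 had one, where chance gives about 1 in 20. The values below are CPM, on which the shares differ. MGP was at 0 CPM in iEC D against 0.0590 to 0.0714 CPM in the other iEC samples, which is a difference of 1 count. MGP was also apart in iREC F, at 2.81 CPM against 0.548 to 0.653 CPM. CCN4, listed as WISP1, stood at 149 CPM in iREC C against 90.9 to 96.1 CPM. LTBP4 was low in iREC C, at 5.68 CPM against 11.7 to 13.3 CPM. TAGLN was high in iEC F, at 58.0 CPM against 25.3 to 27.8 CPM.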

How the results depend on the processing

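The number of genes called, 3829, was 3281 to 4954 with all samples (3281 with a stricter filter, 4954 with DESeq2) and 2660 (without iREC D) to 4214 (without iREC F) with a sample left out. Of the 10 genes, FN1, POSTN, THBS1, SPARC and SPARCL1 were called under every alternative run; TNC and LUM were not called with limma-voom, and MGP was added by DESeq2, by no filter and without iEC C, iEC D or iEC F. Lists varied with the sample left out: 3 to 5 receptors called, 3 to 5 other matricellular genes and 2 to 4 vitamin K genes. A stricter filter left 1 small leucine-rich proteoglycan called, since fewer were tested. TGFBI ran from -1.27 to 1.70, LUM from 3.50 to 7.44 and THBS2 from 0.10 to 2.09 in log2 fold change. Same-letter samples correlated from -0.079 (D) to 0.25 (F) in their deviations, and 3 of 8 correlated best with their own letter. The letters as a set do not show pairing, although iEC F and iREC F were each closest to the other. With the replicate block 3334 genes were called, 3098 of them shared, and TNC was lost. Depth limits MGP and SPARCL1, which were at the floor in iEC.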
